A study of Mus musculus with 12 samples.

Results

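The 34 genes described here are a list of genes used to recognise endothelial cells, the cells that line blood vessels, whatever the vessel type. They were chosen by name, with earlier results of these data known, and each symbol matched 1 of the 36131 rows of the table. RNA was measured by RNA-seq in whole retinas of 12 wildtype C57BL/6J mice at P18, each sequenced as a separate library. The groups, called RA-PBS, O2-PBS and O2-IC100, had 4 mice apiece. RA-PBS mice stayed in room air and received PBS as placebo. O2-PBS and O2-IC100 mice were placed in 75% O2 at P7 and were back in room air at P12, the schedule of oxygen-induced retinopathy (OIR), in which high oxygen stops and destroys growing retinal capillaries and the return to room air is followed by abnormal new vessels. Per the labels, injections were intraperitoneal on P12, P14 and P16, with IC100 at 10 µg/g, whereas the study's own text gives PBS into the vitreous. IC100 is a humanized monoclonal antibody against ASC, the adaptor that assembles inflammasomes. Every O2-IC100 animal had been in high oxygen, and no room air group with IC100 was analysed here, so the antibody was compared only within OIR. RA-PBS comprised animals 1 to 4, O2-PBS animals 5 to 8 and O2-IC100 animals 9 to 12.

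Endothelial identity rests on a small set of transcription factors of the ETS and SOXF families, which bind enhancers and promoters of genes for junctions, surface mucins, receptors and secreted factors. Retinal endothelial cells form the inner blood-retina barrier, and they stop dividing as the capillary beds mature in the weeks after birth. In OIR these cells are lost from the central retina first and then divide in tufts at the edge of the avascular area. Whole-retina RNA cannot tell more endothelial cells from more RNA per endothelial cell, and this holds for every value below. Several of the genes are also used outside endothelium: Pecam1, Cd34, Ets1, Fli1, Erg and Tal1 in blood cells or their precursors, Cav1 and S1pr1 in glia, and Podxl in neurons and other epithelia.

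Counts summed to between 14907143 and 24438082 per retina, and 3 counts corresponded to 0.144 to 0.181 normalized CPM (counts scaled to library size and TMM factor) in 11 libraries and to 0.379 in O2-IC100 animal 10. That library stood apart. Its TMM factor was 0.324, against 1.07 to 1.15 in the others, which raises its normalized CPM relative to counts per total. Lens genes, a list of 15, took 38.361% of its counts (95% Wilson interval 38.341 to 38.38%) and a list of 10 rod photoreceptor genes 0.33315% (0.33088 to 0.33545%), where the rod share was 3.88 to 4.81% in the other 11. These intervals cover counting error only. Its summed levels of pigment epithelium, erythroid, smooth muscle and fibroblast genes were also the highest of the 12. Both comparisons of O2-IC100 are therefore given with and without animal 10. Lens genes also took 0.824 to 3.22% of counts in RA-PBS animals 2, 3 and 4, against 0.00143% in RA-PBS animal 1 and at most 0.00965% in O2-PBS. Summed levels of 4 Y-linked genes were high, from 223 to 324 normalized CPM, in RA-PBS animals 1 to 3, O2-PBS animal 8 and O2-IC100 animals 9, 11 and 12, and low, from 4.04 to 9.85, in the other 5, so that this level was not balanced over the groups.

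All 34 genes were detected in retina and all passed the filter on low counts in each comparison, and their levels in RA-PBS spanned a wide range. Levels of different genes are compared per kb of exon, as normalized CPM per kb, mean ± SD over 4 animals. Podxl, which encodes the sialomucin podocalyxin, had the highest level, 36.1 ± 3.3, followed by Cav1, the coat protein of caveolae, at 13.95 ± 3.5, and by S1pr1, a receptor for sphingosine-1-phosphate, at 10.5 ± 2.43. Of the 33 pairs of neighbours in this order, 30 had overlapping ranges of mean ± SD, and the exceptions were Podxl above Cav1, Adgrl4 above Rasip1 and Rasip1 above Pecam1. The lowest levels were those of the kinase gene Bmx, 0.345 ± 0.07, of Myct1, 0.238 ± 0.148, and of Tal1, 0.134 ± 0.105. Tal1, a basic helix-loop-helix factor of blood and endothelial precursors, had 0 counts in RA-PBS animal 1, which allows a level of up to 3 counts. Podxl alone held 35.0% of the normalized CPM summed over the list in RA-PBS and 24.8% in O2-PBS. The summed level was 576, 534, 609.8 and 543 in RA-PBS, 1087, 843, 860.4 and 1010.4 in O2-PBS and 648, 723 and 699.6 in O2-IC100 animals 9, 11 and 12, with 275 in animal 10. Every O2-PBS value lay above every RA-PBS value, and the 3 O2-IC100 values without animal 10 lay between both groups.

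Promoter sequence was examined because the list holds both ETS and SOXF factors and genes that such factors are known to bind. RefSeq promoters (GRCm38.p6, 250 bases before to 50 after each start) were at hand for 19 of the 34 genes, with 26 promoters in all, and the 250 bases before the start were searched on both strands. A core ETS motif, CAGGAA or CCGGAA, was present in 57.7% of these promoters and in 35.1% of all 32851. The SOX motif ACAAT was present in 38.5% against 27.7%, the GATA motif AGATAA in 11.5% against 9.99%, the hypoxia element ACGTG in 15.4% against 16.6%, and the E-box CACGTG, which contains ACGTG, in 0% against 6.02%. These shares describe letters and do not show binding. Printed below, 5′ to 3′ on the plus strand and 120 bases each, are windows of the 3 genes with the largest fold change in O2-PBS over RA-PBS among those that passed the test and had an ETS match in an available promoter, to show where these letters lie. Capitals mark CAGGAA or its reverse complement TTCCTG. Emcn is at chr3:137340958-137341077, ending at base -1 before the start, with the match at -67. Cd34 is at chr1:194938623-194938742, running from -198 to -79, with matches at -194 and -141. Myct1 is at chr10:5593608-5593727, ending at -1, with the match at -25.
Emcn: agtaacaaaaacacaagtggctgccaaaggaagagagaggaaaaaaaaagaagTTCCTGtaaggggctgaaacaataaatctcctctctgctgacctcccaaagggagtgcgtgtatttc
Cd34: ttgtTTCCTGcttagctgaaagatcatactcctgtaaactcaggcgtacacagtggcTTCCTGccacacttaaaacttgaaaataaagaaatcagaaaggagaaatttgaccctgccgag
Myct1: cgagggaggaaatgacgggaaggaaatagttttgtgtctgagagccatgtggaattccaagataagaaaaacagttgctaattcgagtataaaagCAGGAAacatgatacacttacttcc

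The comparison of O2-PBS with RA-PBS asks how the endothelial genes stood at P18, after the return to room air. Of the 34, 21 were higher in O2-PBS and 1 was lower. Over all 16165 genes tested, 3.53% were higher and 1.84% lower. To be counted, a gene needed p under 0.05, adjusted p under 0.1 and a change of 1.5-fold or more. Adjusted p-values are from edgeR's quasi-likelihood test with Benjamini-Hochberg adjustment over all genes tested, and they measure the spread between these animals only. The median log2 fold change of the 34 was 1.16, where that of all tested genes was -0.019, and 31 of 34 were above 0. The plot of log2 fold changes by role shows that the genes did not move as a block, with junction genes and transcription factors to the right and signalling genes on both sides of 0, from -0.93 for Bmx to 0.97 for Rhoj. Animals did not overlap between the groups for 28 of the 34, 26 higher and 2 lower in O2-PBS. Among all tested genes 7.83% were higher and 6.73% lower without overlap.

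**Figure D1:**
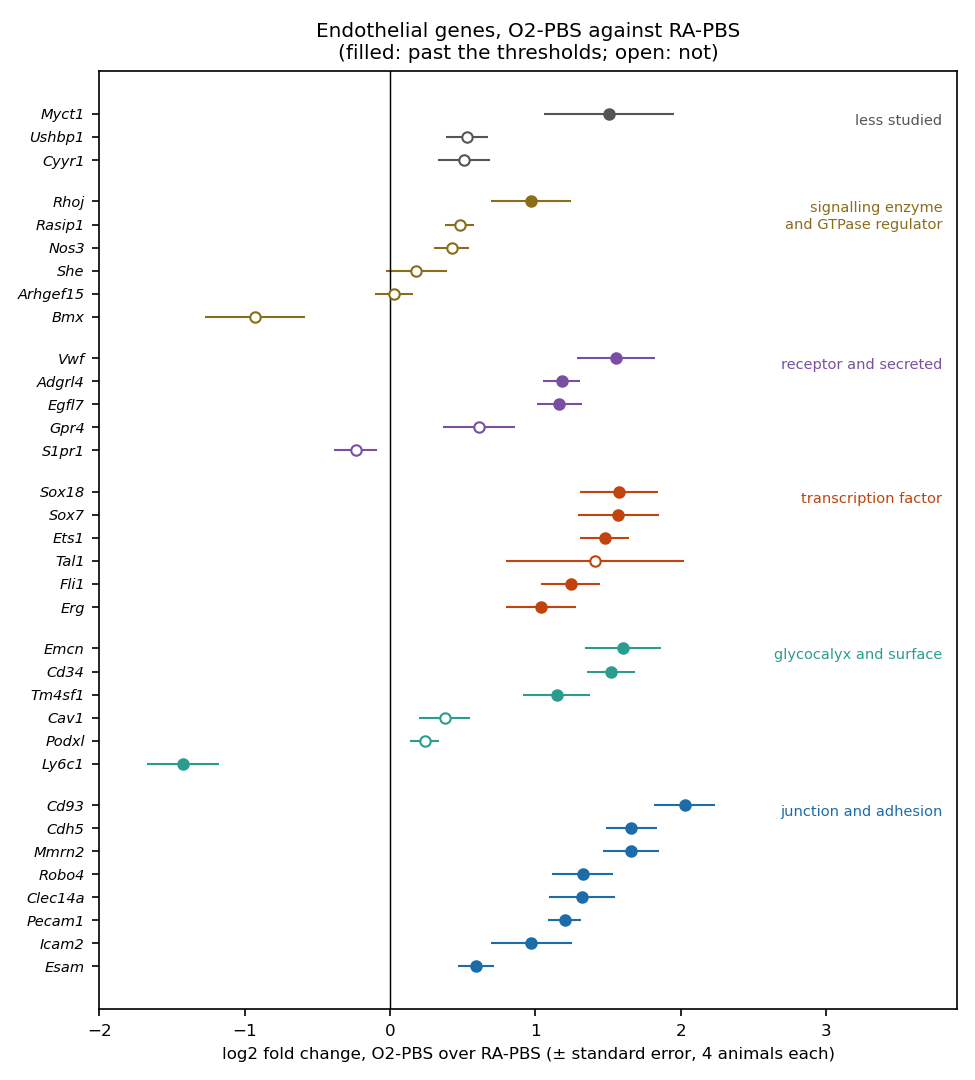
Log2 fold change of each of the 34 endothelial genes in O2-PBS over RA-PBS, by role, with bars of 1 standard error (4 animals in each group). Filled points passed the thresholds, 21 to the right of 0 and Ly6c1 alone to the left, and open points did not.

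All 8 junction and adhesion genes were higher in O2-PBS. Cd93, a C-type lectin receptor of endothelial cells, had the largest fold change of the list: it was at 14.5, 16.95, 26.5 and 13.95 normalized CPM in RA-PBS and at 92.3, 62.7, 60.5 and 79.9 in O2-PBS. The lowest O2-PBS animal was well above the highest RA-PBS animal, and the log2 fold change was 2.03 ± 0.21 (SE, adjusted p = 0.00098). Cdh5, the VE-cadherin of adherens junctions, was at 11.7, 12.6, 14.1 and 7.69 in RA-PBS and at 42.3, 32.5, 33.8 and 38.2 in O2-PBS. These groups did not overlap either, and the log2 fold change of Cdh5 was 1.66 ± 0.17 (adjusted p = 0.00098). Mmrn2, an extracellular matrix protein that binds Cd93 and Clec14a, was at 2.75, 3.28, 4.61 and 3.48 in RA-PBS and at 11.2, 9.44, 10.2 and 14.1 in O2-PBS, a log2 fold change of 1.66 ± 0.19. Clec14a, the related lectin, was at 4.77, 3.04, 4.88 and 6.003 in RA-PBS and at 11.4, 8.24, 12.7 and 14.6 in O2-PBS (1.32 ± 0.23 on the log2 scale). Both binding partners and their ligand were thus separated between the groups in all 8 animals. Robo4, an endothelial receptor of the roundabout family, was at 5.89, 6.76, 7.55 and 5.58 in RA-PBS and at 22.97, 12.4, 12.3 and 17.6 in O2-PBS. Animals 5 and 8 were the higher O2-PBS animals, and its log2 fold change was 1.32 ± 0.21. Pecam1 (CD31), an adhesion molecule of endothelial contacts, was at 20.1, 17.5, 22.9 and 19.5 in RA-PBS and at 50.8, 40.7, 42.6 and 51 in O2-PBS, and it had the smallest p-value of the list (log2 fold change 1.201 ± 0.11, adjusted p = 0.000769). Icam2, a ligand of leukocyte integrins, was at 2.52, 1.26, 1.499 and 2.16 in RA-PBS and at 3.26, 2.87, 3.68 and 4.88 in O2-PBS (0.97 ± 0.28), and Esam, a tight junction adhesion molecule, was at 20.6, 18.3, 17.7 and 16.3 in RA-PBS and at 31.1, 25.6, 23.6 and 30.3 in O2-PBS. Esam had the smallest change of the 8, 0.59 ± 0.12, close to the fold threshold.

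Of the 6 glycocalyx and surface genes, 3 were higher, 1 was lower and 2 did not pass. Emcn (endomucin), a sialomucin of capillaries and veins, was at 1.63, 2.51, 3.22 and 4.63 normalized CPM in RA-PBS and at 8.44, 9.96, 8.31 and 9.98 in O2-PBS, a log2 fold change of 1.604 ± 0.26 (adjusted p = 0.0079). Cd34, a sialomucin of endothelium and blood progenitors, was at 16.6, 10.2, 16.7 and 16.96 in RA-PBS and at 41.1, 37.95, 43.1 and 52.1 in O2-PBS (1.52 ± 0.17). Tm4sf1, a tetraspanin-like surface protein, was at 8.98, 7.1, 6.94 and 11.7 in RA-PBS and at 24.8, 13.1, 16.1 and 23.4 in O2-PBS (1.15 ± 0.23), with its lowest O2-PBS animal close to its highest RA-PBS animal. Podxl was at 190.2, 212, 214 and 177 in RA-PBS and at 262, 234, 214 and 232 in O2-PBS. The highest RA-PBS and the lowest O2-PBS animals of Podxl were equal to 3 digits, and its log2 fold change of 0.24 ± 0.099 did not pass (adjusted p = 0.218). Cav1 overlapped between the groups, with 0.37 ± 0.18 (adjusted p = 0.274).

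Ly6c1 was the gene that went the other way. It encodes a small GPI-anchored surface protein that is abundant in brain and retinal capillaries. Ly6c1 was at 16.1, 9.85, 9.27 and 16.1 normalized CPM in RA-PBS, at 3.14, 5.84, 5.202 and 4.99 in O2-PBS, at 4.63, 4.51 and 5.59 in O2-IC100 animals 9, 11 and 12 and at 0.505 in animal 10. Every animal of both O2 groups lay below every room air animal. The log2 fold change of O2-PBS over RA-PBS was -1.43 ± 0.25 (adjusted p = 0.0108). Set against Cdh5 in the same retina, a ratio chosen after the values were seen, Ly6c1 was at 0.6575 to 2.09 times the Cdh5 level in RA-PBS and at 0.0742 to 0.1795 times in O2-PBS. It was at 0.26, 0.21 and 0.25 times in O2-IC100 animals 9, 11 and 12 and at 0.1 times in animal 10. Cdh5 was itself called higher in O2-PBS, so the gap between the PBS groups follows from the choice of both genes. The counts behind these levels were 4 to 305 per retina. Sequence limits the gene's identity: 46.8% of the 31-base words in its GENCODE transcripts occur in other genes, 33.0% in its neighbour in sequence Ly6c2, so the pseudoalignment could divide reads between both. Ly6c2 itself held only 1 to 10 counts per retina and was not tested.

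Transcription factors were higher together. The ETS factors Erg, Fli1 and Ets1 and the SOXF factors Sox7 and Sox18 all passed, and Tal1 did not. Ets1 was at 14.6, 9.51, 12.99 and 10.1 normalized CPM in RA-PBS and at 38.95, 26.4, 30.9 and 36.3 in O2-PBS (1.48 ± 0.17 on the log2 scale, adjusted p = 0.00129). Fli1 was at 1.91, 2.22, 2.89 and 3.26 in RA-PBS and at 6.45, 5.42, 5.54 and 7.095 in O2-PBS (1.24 ± 0.20), and Erg was at 2.08, 2.75, 4.44 and 4.05 in RA-PBS and at 7.54, 5.32, 7.12 and 7.54 in O2-PBS (1.04 ± 0.24). None of the 3 ETS factors overlapped between the groups. Sox18 was at 4.15, 2.08, 4.55 and 4.11 in RA-PBS and at 12.6, 8.71, 8.31 and 14.97 in O2-PBS (1.58 ± 0.27). Sox7 was at 1.85, 1.45, 1.17 and 1.11 in RA-PBS and at 4.34, 3.701, 2.94 and 5.77 in O2-PBS (1.57 ± 0.28). Tal1 did not overlap between the groups, at 0, 1.11, 0.555 and 0.685 in RA-PBS and 2.23, 1.41, 1.53 and 1.27 in O2-PBS, but with at most 42 counts per retina its log2 fold change of 1.41 ± 0.61 had an adjusted p of 0.239.

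Of the 5 receptors and secreted factors, Vwf, Adgrl4 and Egfl7 were higher in O2-PBS. Vwf (von Willebrand factor), which tethers platelets and is stored in endothelial granules, was at 14.4, 21.5, 30.3 and 10.9 normalized CPM in RA-PBS and at 71.4, 49.7, 47.7 and 59.6 in O2-PBS, a log2 fold change of 1.55 ± 0.27 (adjusted p = 0.0108). Its RA-PBS animals differed widely among themselves, yet all lay below O2-PBS. Adgrl4, an adhesion G protein-coupled receptor, was at 23.4, 19.5, 23.7 and 23.5 in RA-PBS and at 59.9, 42.3, 45.1 and 58.4 in O2-PBS (1.18 ± 0.13). Egfl7, a secreted factor of the vessel matrix, was at 9.54, 9.61, 12.1 and 12.8 in RA-PBS and at 28.4, 19.5, 22.7 and 28.8 in O2-PBS (1.16 ± 0.15). Gpr4, a proton-sensing receptor, overlapped between the groups with 0.61 ± 0.25 (adjusted p = 0.208). S1pr1 was at 43.03, 27.5, 28.6 and 28.7 in RA-PBS and at 28.5, 25.4, 26.5 and 29.2 in O2-PBS. It overlapped as well, and its log2 fold change was -0.24 ± 0.15 (adjusted p = 0.433).

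Of the 6 signalling enzymes and GTPase regulators, Rhoj was the 1 that passed. Rhoj, a small GTPase of endothelial cells, was at 13.2, 8.45, 20.8 and 19.9 normalized CPM in RA-PBS and at 44.4, 23.3, 25.5 and 29.4 in O2-PBS (0.97 ± 0.28, adjusted p = 0.0744), and the groups were separated by the small step from 20.8 to 23.3. Nos3 (endothelial nitric oxide synthase) was at 19.9, 22.5, 25.6 and 17.7 in RA-PBS and 31.7, 26.8, 29.7 and 27.7 in O2-PBS, and Rasip1, a Ras-interacting protein needed for vessel lumens, at 12.6, 13.96, 12.3 and 12.3 and 18.8, 17.8, 16.8 and 18.5. For both the animals did not overlap and the adjusted p was under 0.1, at 0.0774 and 0.0215, but their fold changes of 1.34 and 1.39 were under 1.5. Part of the sequence of both is shared with other genes, 25.1% of the 31-base words of Nos3 and 38.0% of those of Rasip1. Arhgef15, a guanine nucleotide exchange factor, and She, an adaptor with an SH2 domain, overlapped between the groups (0.028 ± 0.13 and 0.18 ± 0.21). Bmx, a Tec family kinase gene of arterial endothelium, was at 1.35, 0.966, 1.11 and 0.842 in RA-PBS and at 0.482, 0.469, 0.509 and 0.776 in O2-PBS. The groups of Bmx did not overlap, yet with at most 24 counts per retina its log2 fold change of -0.93 ± 0.34 did not pass (adjusted p = 0.161).

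The less studied genes Cyyr1, Myct1 and Ushbp1 had log2 fold changes of 0.51 ± 0.18, 1.51 ± 0.45 and 0.53 ± 0.14, and Myct1 was the 1 that passed (adjusted p = 0.0833). Myct1 was at 1.29, 0.386, 0.611 and 0.421 normalized CPM in RA-PBS and at 1.63, 1.15, 2.83 and 2.16 in O2-PBS, with RA-PBS animal 1 above O2-PBS animal 6. The Myct1 call was the least firm of the 22. When animals were removed singly it held in 1 of 8 fits, that of Icam2 held in 2, that of Rhoj in 3, that of Esam in 4 and that of Erg in 5, and the other 17 held in all 8. DESeq2 called the same 21 and Ly6c1 (4.22% of all genes higher, 2.24% lower). Estimating the spread from all 3 groups left Cdh5, Cd93, Cd34, Ets1, Sox18 and Egfl7 higher and none lower (0.782% and 0.0243% of all genes), and the same fit without animal 10 called the 21 and Ly6c1 (4.09% and 2.18%). With the summed Y-linked level as a covariate, a fit chosen after seeing the data, 18 genes were higher and Ly6c1 was lower (2.33% and 1.19% of all genes): Icam2, Erg, Rhoj and Myct1 no longer passed, and Ushbp1 did. Within animals of like Y-linked level, O2-PBS animal 8 was above RA-PBS animals 1 to 3 for all 21 genes called higher, and RA-PBS animal 4 was below O2-PBS animals 5 to 7 for all 21. The 21 were called from these same animals, which largely fixed these orders beforehand, so they are no test of the Y-linked level. Lens RNA moved with the groups too, and the lens-poor RA-PBS animal 1 lay below every O2-PBS animal for 20 of the 21, with Myct1 the exception, and above every O2-PBS animal for Ly6c1. The choice of genes largely fixed this order as well, and the part of lens RNA in it was not tested.

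**Figure D2:**
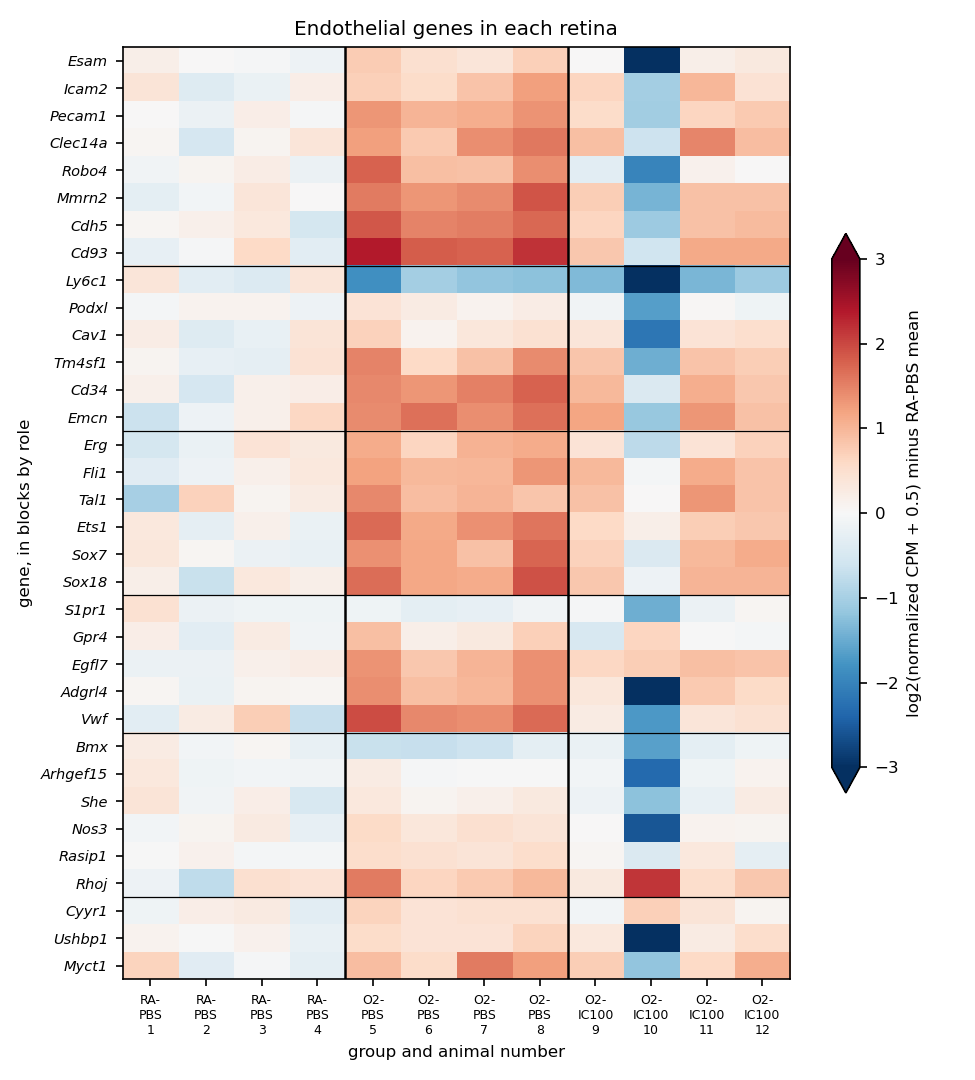
Level of each gene in each retina as log2(normalized CPM + 0.5) minus the RA-PBS mean, genes in blocks by role and animals in columns by group. The O2-PBS columns are above the room air mean (red) for most genes and below it (blue) for Ly6c1, O2-IC100 animals 9, 11 and 12 are paler, and animal 10 is lowest of its group for 30 of 34 genes.

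Within groups some animals stood higher or lower than others over much of the list. The same count was not made over all genes, so whether it is particular to the list was not tested. In O2-PBS, animals 5 and 8 were the highest pair for 24 of the 34 genes, as the heat map of all retinas shows, and their summed levels were 1087 and 1010.4 against 843 and 860.4 in animals 6 and 7. In O2-IC100, animal 10 was lowest for 30 of 34 and highest for Gpr4, Rhoj and Cyyr1. Those highest places are in normalized CPM, which its low TMM factor raises. In raw counts animal 10 was not the highest for any of these genes, and what set their levels in it was not tested. Gpr4 had 32 counts in animal 10 and 30, 50 and 47 in animals 9, 11 and 12. Cyyr1 had 61 counts in animal 10 and 79, 126 and 98 in animals 9, 11 and 12, and Rhoj 526 against 339, 447 and 536.

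Other vascular gene lists give the setting of these values in O2-PBS against RA-PBS. Of 10 receptors for endothelial growth factors and angiopoietins, 5 were higher and none lower (Flt4, Nrp1, Tie1, Eng and Acvrl1), with a median log2 fold change of 0.72. Tie1, the orphan receptor of the angiopoietin system, and Eng, a coreceptor for BMP ligands, had log2 fold changes of 1.40 and 1.47, whereas Kdr, the main VEGF receptor, had 0.60 and Tek, the angiopoietin receptor, 0.19, and neither passed. All 10 genes of tip cells and tufts were higher, with a median of 1.93. Of 10 blood-retina barrier genes, the tight junction gene Cldn5 was higher (0.79) and the organic anion transporter gene Slco1c1 was lower (-0.91), and the median was 0.040. Of 9 arterial genes tested 2 were higher, and of 7 venous genes 3. Pericyte genes were higher in 6 of 10, with a median of 0.94, and proliferation genes in 5 of 10, with a median of 1.15. Among cells that share markers with endothelium, microglia and macrophage genes were higher in 5 of 10, and of 10 genes of white blood cells and platelets only 2 had enough counts to be tested, neither of which passed. The white cell and platelet list summed to 3.84 to 7.38 normalized CPM in RA-PBS and 6.99 to 9.29 in O2-PBS. The microglia and macrophage list summed to 53.6 to 95.5 in RA-PBS and 97.0 to 123 in O2-PBS. The part of both lists in the higher Pecam1, Cd34, Ets1, Fli1 and Erg levels was not tested. Pigment epithelium genes were lower in 3 of 6, with list sums of 102 to 295 in RA-PBS and 45.9 to 121 in O2-PBS, and their part in the results was not tested. Of 10 rod genes 0 passed.

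The comparison of O2-IC100 with O2-PBS asks whether the antibody changed these levels within OIR. With all 8 animals edgeR called 0 of the 34 genes and 0 of 16126 tested (0% in each direction), with 8 genes of the list and 2183 overall at an unadjusted p under 0.05, and DESeq2 called 5 of the list lower (Cdh5, Robo4, Cd93, Ets1 and Vwf), where 1.55% of all genes were lower and 0.635% higher. The log2 fold changes had a median of -0.61, and 32 of 34 were below 0. Without animal 10, 8 of the 34 genes were lower and 0 higher in O2-IC100, where 3.82% of all 16352 genes tested were lower and 1.01% higher. The median without animal 10 was -0.40, and that of all genes was -0.0068. With the spread estimated from all 3 groups without animal 10, 6 were lower (Cdh5, Robo4, Cd93, Ets1, Adgrl4 and Vwf), beside 0.731% of all genes lower and 0.216% higher. DESeq2 without animal 10 called the same 8 lower (3.46% of all genes lower, 0.948% higher). Animals did not overlap for 17 of 34 genes, all lower, beside 17.5% of all genes lower and 18.3% higher. With all 4 O2-IC100 animals, 15 of 34 were lower without overlap, beside 10.8% lower and 10.3% higher.

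Robo4 and Vwf had the largest differences. Robo4 was at 22.97, 12.4, 12.3 and 17.6 normalized CPM in O2-PBS and at 5.06, 7.06 and 6.47 in O2-IC100 animals 9, 11 and 12, with 1.26 in animal 10. The highest of these O2-IC100 values was well under the lowest O2-PBS value, and the log2 fold change without animal 10 was -1.39 ± 0.24 (adjusted p = 0.00461). Vwf was at 71.4, 49.7, 47.7 and 59.6 in O2-PBS and at 21.2, 23.3 and 25 in animals 9, 11 and 12, with 5.05 in animal 10 (log2 fold change -1.297 ± 0.14, adjusted p = 0.000431). The 3 O2-IC100 animals of Vwf were close to each other and far below O2-PBS. Cd93 was at 30.8, 39.1 and 39.1 and 11.4 in the same order, after 92.3, 62.7, 60.5 and 79.9 in O2-PBS, a log2 fold change of -1.02 ± 0.17 (adjusted p = 0.00629). Cdh5 was at 17.8, 21.03 and 22.2 in animals 9, 11 and 12 and 5.05 in animal 10, a log2 fold change of -0.84 ± 0.10 (adjusted p = 0.000226). For both genes animals 9, 11 and 12 lay below O2-PBS and above RA-PBS.

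Mmrn2, Ets1, Gpr4 and Adgrl4 made up the rest of the 8. Mmrn2 was at 6.18, 6.86 and 6.77 normalized CPM in animals 9, 11 and 12 and 1.01 in animal 10 (-0.76 ± 0.15 on the log2 scale, adjusted p = 0.00255). Ets1 was at 17.9, 19.8 and 20.8 and 13.1 (-0.76 ± 0.12, adjusted p = 0.00121), and it was the 1 transcription factor that passed. Adgrl4 was at 28.7, 39.3 and 33.5 and 2.27 (-0.60 ± 0.15, adjusted p = 0.0231), close to the fold threshold. Gpr4 was at 4.94, 2.82, 3.11 and 4.32 in O2-PBS, at 1.597, 2.4 and 2.304 in animals 9, 11 and 12 and at 4.04 in animal 10 (-0.84 ± 0.25, adjusted p = 0.0219). Of the 8, Gpr4 alone had animal 10 within the O2-PBS range, and with it the log2 fold change was -0.56 ± 0.33. By role, 4 of 8 junction genes, 3 of 5 receptors and secreted factors and 1 of 6 transcription factors passed, and no surface, signalling or less studied gene did. A further 11 genes had adjusted p-values under 0.1 with fold changes between 0.668 and 0.805, short of the fold threshold. They were Pecam1, Cd34, Sox18, Erg, Podxl, Esam, Nos3, Rasip1, Emcn, Egfl7 and Cyyr1. In this edgeR fit the unadjusted p was under 0.05 for 19 of the 34 genes and for 6222 of all 16352 tested. The share of all genes with an adjusted p under 0.1 was not counted.

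Other genes had values near 0 between O2-IC100 and O2-PBS. Without animal 10 the log2 fold change was 0.0098 ± 0.11 for Cav1, 0.033 ± 0.20 for Ly6c1, -0.084 ± 0.10 for Arhgef15 and 0.15 ± 0.083 for S1pr1, and the animals overlapped for all 4. Bmx had the highest value, 0.60 ± 0.37 (adjusted p = 0.248), at 0.852, 0.768 and 0.932 normalized CPM in animals 9, 11 and 12, which overlapped O2-PBS, and 0 counts in animal 10. Y-linked levels were high in animals 9, 11 and 12 and, of O2-PBS, in animal 8 alone. All 3 lay below animal 8 for each of the 8 genes, an order that calling these genes lower from the same animals largely fixed beforehand. With the Y-linked covariate 7 genes were lower without animal 10 (Cdh5, Pecam1, Mmrn2, Cd34, Ets1, Sox18 and Vwf), so that Robo4, Cd93, Gpr4 and Adgrl4 no longer passed, and 0.446% of all genes were lower and 0.128% higher.

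**Figure D3:**
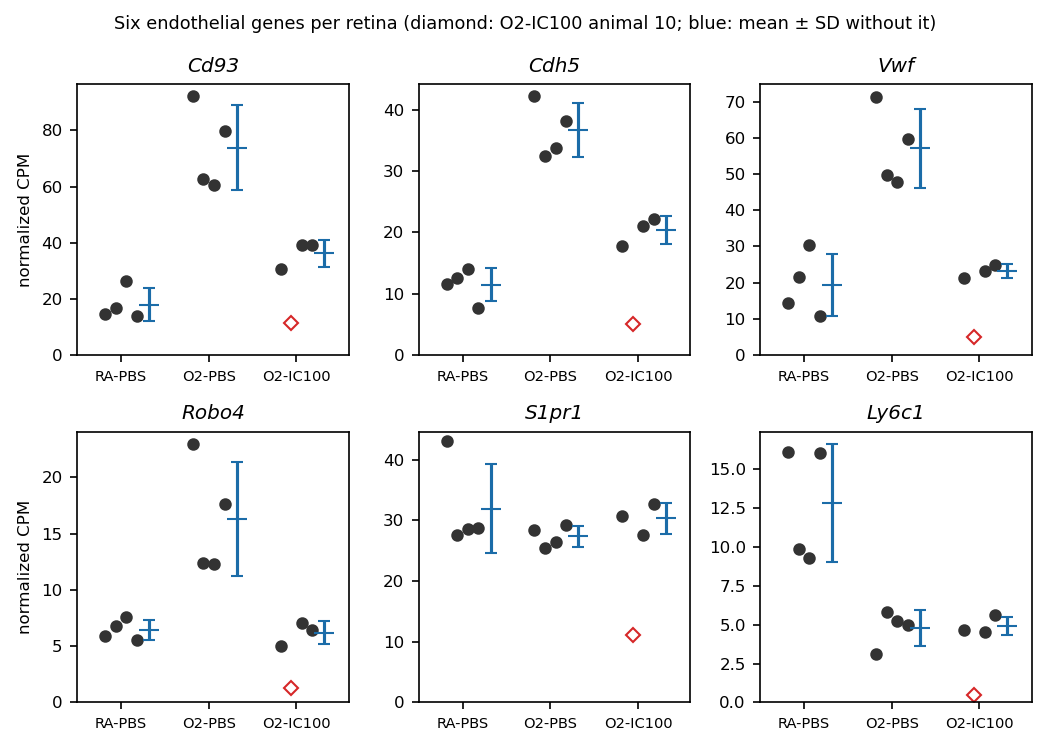
Normalized CPM of Cd93, Cdh5, Vwf, Robo4, S1pr1 and Ly6c1 in each retina by group, with the mean ± SD in blue (O2-IC100 without animal 10, drawn as a diamond). In O2-IC100 animals 9, 11 and 12, Robo4 and Vwf lie beside RA-PBS, and Cd93 and Cdh5 lie between both PBS groups. Animal 10 lies below every RA-PBS animal for each of these genes. S1pr1 overlaps between all 3 groups apart from the low animal 10, and Ly6c1 is low in both O2 groups.

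Other lists moved in the same comparison without animal 10. Lower were 5 of 10 growth factor and angiopoietin receptors (Flt4, Tie1, Eng, Acvrl1 and Ptprb), 9 of 10 tip cell and tuft genes, 5 of 10 pericyte genes, 5 of 10 proliferation genes and 4 of 4 smooth muscle genes tested. With the spread estimated from all 3 groups, also without animal 10, the same 5 receptors were lower, but only 3 of 10 tip cell and tuft genes, 3 of 10 pericyte genes, 0 of 10 proliferation genes and 1 of 4 smooth muscle genes. Of 10 barrier genes none passed in either fit, and their median was -0.037 in the first.

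The comparison of O2-IC100 with RA-PBS asks what still differed from room air. It shares its animals with the 2 comparisons above, and its values stand beside theirs without independence. With all 8 animals edgeR called 0 of the 34 genes and 0 of 16004 (0% in each direction), with 5 genes of the list and 792 overall at an unadjusted p under 0.05, and DESeq2 called Egfl7 higher, where 0.354% of all genes were higher and 0.0409% lower. Without animal 10 edgeR again called 0 of the 34, with 0.0858% of 16309 genes higher and 0.0245% lower. An unadjusted p under 0.05 was found for 19 of the list and for 1745 of the 16309 genes. The lowest adjusted p-values were 0.106 for Ly6c1 and 0.115 for both Cd34 and Egfl7. The call depended on the fit. When the spread was estimated from all 3 groups without animal 10, 14 genes were higher and Ly6c1 was lower (0.947% and 0.617% of all genes), and DESeq2 without animal 10 called the same 14 and Ly6c1 (0.921% and 1.11%). With the Y-linked covariate 13 of these 14, all but Sox7, were higher and Ly6c1 was lower (1.62% and 2.51%). The 14 were Cdh5, Pecam1, Clec14a, Cd93, Mmrn2, Emcn, Cd34, Tm4sf1, Fli1, Ets1, Sox7, Sox18, Adgrl4 and Egfl7.

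In the comparison of the 2 groups alone the median log2 fold change was 0.36 with animal 10 and 0.56 without it, and 26 of 34 were above 0 without it. The animals of 17 genes lay above RA-PBS without overlap, beside 5.17% of all genes, and those of Ly6c1 lay below, beside 5.59%. With animal 10 that held for Egfl7 (2.51%) and Ly6c1 (3.33%) alone. Clec14a was at 8.997, 13.5 and 9.07 normalized CPM in animals 9, 11 and 12 against 4.77, 3.04, 4.88 and 6.003 in RA-PBS (1.18 ± 0.24 on the log2 scale, adjusted p = 0.166). Emcn was at 7.08, 7.82 and 5.64 against 1.63, 2.51, 3.22 and 4.63 (1.196 ± 0.31, adjusted p = 0.233), and Cd34 at 29.7, 32.1 and 26.2 against 16.6, 10.2, 16.7 and 16.96 (0.96 ± 0.17, adjusted p = 0.115). Egfl7, for which animal 10 was in the range of its group at 18.6, was at 17.1, 20.8 and 20.3 against 9.54, 9.61, 12.1 and 12.8 (0.82 ± 0.15 without and 0.80 ± 0.17 with animal 10). These 4 genes were separated from room air in animals 9, 11 and 12, by values that edgeR did not call. Robo4 and Vwf, by contrast, overlapped with room air, with log2 fold changes of -0.053 ± 0.20 and 0.27 ± 0.29. Tal1 had the highest log2 fold change, 1.38 ± 0.72, from very low counts (adjusted p = 0.539), and Ly6c1 the lowest, -1.38 ± 0.24 (adjusted p = 0.106).

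**Figure D4:**
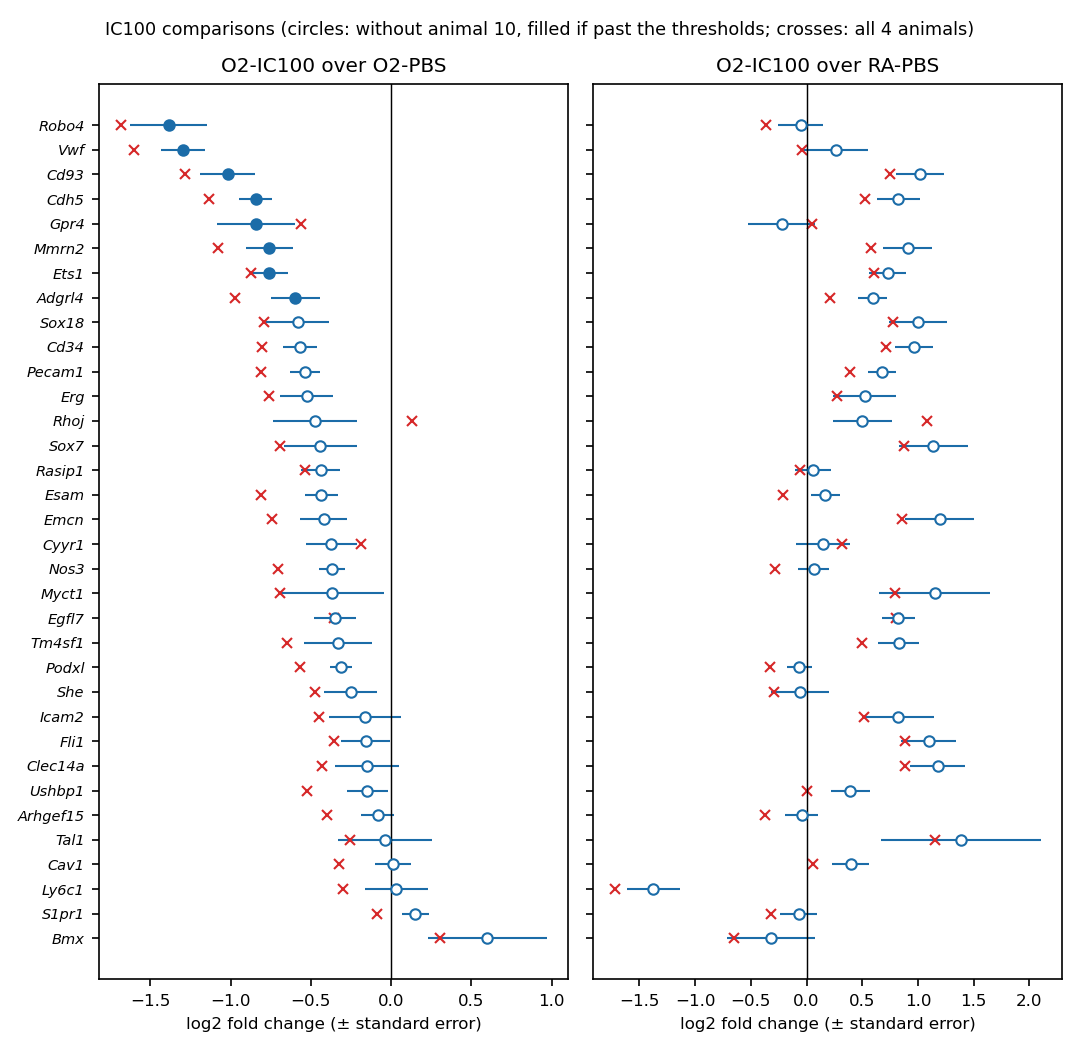
Log2 fold changes of the 34 genes in O2-IC100 over O2-PBS (left) and over RA-PBS (right), with bars of 1 standard error. Circles are without animal 10 and are filled where the thresholds were passed (8 on the left, none on the right), and crosses are with all 4 O2-IC100 animals.

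Read side by side, the genes fell into different places between both PBS groups. Robo4 was at 6.45 ± 0.889 normalized CPM (SD, n = 4) in RA-PBS, 16.3 ± 5.103 in O2-PBS and 6.195 ± 1.03 (n = 3) in O2-IC100 without animal 10. Cd93 was at 17.99 ± 5.84, 73.9 ± 15.1 and 36.3 ± 4.76. Fli1 was at 2.57 ± 0.617, 6.13 ± 0.793 and 5.48 ± 0.5498, and Clec14a at 4.67 ± 1.22, 11.7 ± 2.67 and 10.5 ± 2.57. The O2-IC100 level of Robo4 was thus close to room air, that of Cd93 between both PBS groups, and those of Fli1 and Clec14a within 1 SD of O2-PBS. Ly6c1 was at 12.8 ± 3.77, 4.79 ± 1.16 and 4.91 ± 0.5903, low in both groups that had been in high oxygen. Whether these genes differed from each other in how far O2-IC100 stood from O2-PBS was not tested.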

How the data were processed

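RNA-seq of polyadenylated RNA from 12 retinas was used. The authors pseudoaligned paired reads with Kallisto to mouse GRCm39 transcripts and summed them per gene with tximport, and deposited each estimated count without normalization, for 36131 genes. Of these values 42.2% were not whole, and all were rounded here. Groups came from the labels, and replicates are separate mice whose counts differed beyond sampling noise. Genes with low counts were removed with filterByExpr, libraries were scaled by TMM, and the 2 groups of each comparison were fitted alone with the robust quasi-likelihood test of edgeR 4.0.16 in R 4.3.3, with Benjamini-Hochberg adjustment over all genes tested. DESeq2 1.42.0, other scaling, no filter, all 3 groups in 1 fit, removal of lens genes and of each animal in turn were alternatives. Normalized CPM used TMM factors over all 12 animals. All 34 members are named, with values per animal for those past the thresholds and those of highest or lowest level or fold change, and other genes only from the lists. The members and the 19 comparison lists were chosen with earlier results of these data known. Promoters and exon lengths came from GRCm38 tables, so gene positions in the build of the files are not given. Totals of 14907143 to 24438082 counts limited Tal1, Bmx and Myct1, which had at most 50 counts.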

Additional observations from a re-analysis of the deposited data

Results flagged for a closer look

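A retina was singled out where its distance from the nearest animal of its group was over 0.829 of the range of the group's 4 values, which chance gives in about 1 of 20 groups. Of 105 results tested in this way, 12 passed. In O2-IC100 animal 10, the lens-rich library, Mmrn2 was at 1.01 normalized CPM (6.18 to 6.86 in the other 3), Tm4sf1 at 2.78 (14.6 to 15.9), Cav1 at 9.97 (60.4 to 66.4) and Nos3 at 3.16 (21.6 to 23.0). Rhoj was instead high there, at 66.4 against 18.05 to 26.3, and the sum over the 34 genes was 275 against 648 to 723. In RA-PBS, animal 2 was low for Cd34, at 10.2 against 16.6 to 17.0, and for Adgrl4, at 19.5 against 23.4 to 23.7. RA-PBS animal 1 was high for S1pr1, at 43.0 against 27.5 to 28.7, and for Arhgef15, at 21.3 against 15.6 to 16.3. In O2-PBS, animal 5 was high for Arhgef15, at 20.4 against 16.7 to 17.1, and animal 8 for Bmx, at 0.776 against 0.469 to 0.509. Causes of these distances were not tested.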

How the results depend on the processing

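No paired analysis was possible because the groups share no replicate numbers. For O2-PBS against RA-PBS, estimating the spread from all 3 groups with animal 10 left 6 genes higher (Cdh5, Cd93, Cd34, Ets1, Sox18 and Egfl7) and 0 lower. Leaving out each animal gave 16 to 20 higher, 1 lower, and medians of 1.06 to 1.259. In these fits 2.22 to 4.05% of all genes were higher and 0.862 to 2.62% lower. For O2-IC100 against O2-PBS, leaving out 1 animal gave 0 to 8 lower, with medians from -0.747 to -0.3961, and 8 only without animal 10. Beside these, 0 to 3.82% of all genes were lower and 0 to 1.01% higher. DESeq2 gave 5 lower, the fit of all groups without animal 10 gave 6 (median -0.3841). Of the fits added after seeing the data, all without animal 10, the Y-linked covariate gave 7, DESeq2 8 (median -0.3959) and removal of lens genes 8 (median -0.3958). With lens genes removed, 3.82% of all genes were lower and 1.01% higher. For O2-IC100 against RA-PBS, leaving out 1 animal gave 0 calls and medians of 0.2533 to 0.557, beside at most 0.0858% of all genes higher and 0.0245% lower. DESeq2 called 1 higher. Without animal 10, the fit of all groups called 14 higher and 1 lower (median 0.5667), the added Y-linked covariate 13 and 1 (median 0.6265), and added DESeq2 14 and 1. Without animals 1 and 10, also added, 1 was higher, beside 0.173% of all genes higher and 0.315% lower. The causes were not tested. Over single genes and alternatives, 0 log2 fold changes switched sign where the gene was called in either fit. Some uncalled genes did switch sign. In O2-IC100 against O2-PBS, Rhoj went from 0.13 with animal 10 to -0.47 without it, and S1pr1 from -0.087 to 0.15.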

Other observations

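Cells around the vessels and in the rest of the retina gave further values in O2-PBS against RA-PBS. Smooth muscle genes were higher in 2 of 4 tested, with a median log2 fold change of 1.01, and of 3 fibroblast genes tested 0 passed (median 0.50). Of 4 lymphatic genes tested 1 was lower, the hyaluronan receptor gene Lyve1, which macrophages also use. Of 6 astrocyte genes 0 passed (median 0.37), and of 6 Müller glia genes 1 was lower, Rlbp1, which encodes a retinaldehyde-binding protein (median -0.43). Of 5 erythroid genes and 1 cornea gene tested, 0 passed. Lens genes were lower in 7 of 13 tested, and RA-PBS animals 2 to 4 were those with a raised lens share.

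In O2-IC100 against O2-PBS without animal 10, the microglia gene P2ry12, a nucleotide receptor, was the 1 of 10 microglia and macrophage genes that passed, and it was higher. Fibroblast genes were lower in 2 of 4 tested, astrocyte genes were higher in 2 and lower in 2 of 6, and 2 of 7 pigment epithelium genes, Mlana and Pmel of the melanosome, were higher. With the spread estimated from all 3 groups without animal 10, 0 microglia and macrophage, 0 fibroblast and 0 pigment epithelium genes passed, and of the astrocyte genes 1 was higher and 1 lower. Calls are by edgeR's quasi-likelihood test with the thresholds given above.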
